A study of Mus musculus with 34 samples.

Results

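Cd14, Myd88 and Il1r1, 3 of the 84 genes on an inflammation panel read by real-time PCR, were followed in lung RNA from 34 female mice. Each gene was taken from 1 well of the plate, C1 for Cd14, F6 for Myd88 and E2 for Il1r1, and all 3 gave a threshold cycle (Ct) in 34 of 34 mice. The mice were C57BL/6 females (C57BL/6J in the study's methods) of 8 weeks that breathed filtered air (FA) or air with 2 ppm of ozone (O3) during 3 h in 1 of the 4 stages of the estrous cycle, and whole lungs were homogenized 4 h after the end of exposure. The FA mice numbered 6 in proestrus, 6 in estrus, 4 in metestrus and 4 in diestrus (20 in all), and the O3 mice 5, 3, 3 and 3 (14 in all). Proestrus and estrus form the follicular phase, and metestrus and diestrus the luteal phase. The cycle was the mouse's own, followed by vaginal smears, and each mouse had 1 array.

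CD14 is a surface co-receptor of monocytes, macrophages and neutrophils that hands lipopolysaccharide and other ligands to Toll-like receptors. MyD88 is the adaptor that most Toll-like receptors and the receptors of the IL-1 family share, and through which they activate NF-kappaB and MAP kinases. IL-1R1 is the signaling receptor for IL-1 alpha and IL-1 beta, carried in the lung by epithelial, endothelial and stromal cells among others. Activation of this route leads to transcription of neutrophil and monocyte chemokines, Il6 and Ptgs2.

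The DNA before the start of transcription of Myd88 and Il1r1 is shown because transcript level is what the array measured. The windows run from 250 bases before to 50 bases after a start site (RefSeq, GRCm38.p6), 5′ to 3′ on the strand of the gene. Of the 3 genes, 2 had an entry, with 3 windows, and Cd14 had none. The windows were searched on both strands for the consensus of NF-kappaB (kappa-B), the core of the interferon-stimulated element, the AP-1 site (TGANTCA), the STAT element (TTCNNNGAA) and the palindromic estrogen response element. Matches are in capitals.
Myd88, chr9:119339969-119340268, minus strand: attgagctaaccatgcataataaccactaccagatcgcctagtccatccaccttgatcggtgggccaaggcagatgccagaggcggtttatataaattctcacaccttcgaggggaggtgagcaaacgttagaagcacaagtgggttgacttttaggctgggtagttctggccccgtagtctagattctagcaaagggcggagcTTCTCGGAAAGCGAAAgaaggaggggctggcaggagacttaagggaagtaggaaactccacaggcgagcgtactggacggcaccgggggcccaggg
Il1r1, chr1:40266336-40266635, plus strand: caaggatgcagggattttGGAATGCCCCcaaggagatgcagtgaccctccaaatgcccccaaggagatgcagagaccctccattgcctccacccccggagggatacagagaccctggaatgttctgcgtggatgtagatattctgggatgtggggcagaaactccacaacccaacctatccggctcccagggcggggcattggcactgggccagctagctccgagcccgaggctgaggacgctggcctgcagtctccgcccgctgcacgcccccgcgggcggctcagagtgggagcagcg
The capitals in Myd88 hold an interferon-stimulated element core, GAAAGCGAAA, at positions -40 to -31 from the start, and overlapping it a STAT element, TTCTCGGAA, at -46 to -38. The capitals in Il1r1 are a kappa-B match, read on the opposite strand, at -232 to -223. The second Il1r1 window, chr1:40224830-40225129, held none of these motifs, and neither AP-1 nor the estrogen response element occurred in any of the 3 windows. The motifs that matched also occur in other promoters. Among 32851 promoter windows of the same length, 8.46% held a kappa-B match, 3.44% the interferon-stimulated element core, 8.3% the STAT element, 7.81% the AP-1 site and 0.07% the estrogen response element.

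Expression is given as -ΔCt, the Ct of the gene subtracted from the mean of the 4 reference wells (H1, H2, H3, H5), on a log2 scale on which a difference of 1 is 1 PCR cycle. The raw Ct ranged from 22.7 to 28.7 for Cd14 (median 25.6), from 23.9 to 29.6 for Myd88 (median 26.5) and from 24.5 to 28.7 for Il1r1 (median 26.0), so none of the 3 was near the limit of detection. Levels of different genes are not set against each other, since each primer pair has its own efficiency. A Ct does not tell how many molecules stood behind it, and precision was read from the spread between mice. The groups were compared with limma over all 84 wells, with Benjamini-Hochberg adjustment and a false discovery rate (FDR) under 0.05.

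Some features of the arrays have to be known before the results. The wells carry no gene names in the data, and the 3 genes could be placed only because the study listed them as changed, Cd14 and Il1r1 in the follicular and Myd88 in the luteal phase. Differences in those phases, in the stages that make them up, and over the 4 stages weighted equally are therefore not independent evidence. The study listed each gene in a single phase. Comparisons between phases, or of Myd88 with the other genes within a phase, are then not independent evidence either. The Ct values are written with 3 decimals for 22 mice, with 6 for 8 mice and with more for 4 mice (those numbered 31 to 34 in the labels). What the number format stands for is not given in the sources used here. All 6 O3 luteal mice were in the 3-decimal format, against 3 of the 8 O3 follicular mice. FA diestrus replicate 2 stood apart in control wells H10 to H12 of the plate, with a mean Ct of 27.5 there against 19.0 to 23.6 in the other mice. FA proestrus replicate 1 (23.6) and O3 estrus replicate 1 (23.1) came next, and FA diestrus replicate 1 was at 19.9. All of these have more than 6 decimals. The 3-decimal mice ran from 19.9 to 21.3 and the 6-decimal mice from 19.0 to 20.9. Whole lung RNA does not separate more cells of a type from more RNA per cell. The defining markers of lung epithelium, macrophages and neutrophils could not be checked, because their wells, if any, are among the 67 without a name.

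Cd14 was higher after O3. With the 4 stages weighted equally, the log2 difference was 1.30 with a standard error of 0.279 (limma adjusted p = 0.000397), a fold of 2.47 with a 95% interval from 1.66 to 3.67, and 13 of 14 O3 mice lay above the FA median of -5.32. In proestrus, the 5 O3 mice were at -2.86, -3.13, -3.16, -3.62 and -3.82, and the 6 FA mice ran from -6.12 to -3.34 with a median of -5.04. All O3 mice but those at -3.62 and -3.82 were above every FA mouse, and a single FA mouse, replicate 5 at -3.34, reached into the O3 range. The difference was 1.63 (standard error 0.474, limma adjusted p = 0.0157), and the call was lost without O3 proestrus replicate 1 (1.51, adjusted p = 0.0531) or without FA proestrus replicate 3 (1.39, adjusted p = 0.0522).

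In estrus, Cd14 was at -1.76, -3.61 and -4.02 in the 3 O3 mice, and ran from -5.79 to -4.91 with a median of -5.31 in the 6 FA mice. The groups did not overlap, as was the case for 16.7% of all wells in estrus. Cd14 rose by 2.21 (standard error 0.554, limma adjusted p = 0.00362), a fold of 4.61 with a wide interval from 2.10 to 10.1. The O3 mouse at -1.76 carried part of this size: without it the difference was 1.52 and the adjusted p 0.107. This mouse also had the highest Ct of all mice in reference well H2 (23.9), which enters its -ΔCt. With H2 alone as the reference the estrus difference was 3.19, and with H1, H3 or H5 alone it was 2.03, 1.92 and 1.68.

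In metestrus, the O3 mice were at -3.58, -4.11 and -4.27 for Cd14 and the FA mice at -5.08, -5.34, -5.36 and -5.52. These groups did not overlap either (17.9% of all wells in metestrus did the same), and the means were -3.99 ± 0.364 (SD, n = 3) and -5.33 ± 0.183 (n = 4). The difference of 1.34 had a standard error of 0.598 and a limma adjusted p of 0.183. The standard error is pooled over all 8 groups, whose SD for Cd14 ran from 0.183 to 1.20.

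In diestrus, Cd14 was at -4.17, -4.29 and -6.26 in the O3 mice and at -3.66, -4.37, -5.53 and -6.26 in the FA mice. The ranges coincided. The difference was 0.05 (standard error 0.598, limma adjusted p = 0.979), and its 95% interval ran from -1.18 to 1.27. Each group held mice from both ends of the range, so that the low O3 mouse, replicate 2, and the high FA mouse, replicate 2, both bear on this value. Without the FA mouse, which is the one with the high control wells, the difference was 0.48, and over all fits that left out 1 mouse it ran from -0.39 to 0.72.

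Whether the O3 effect on Cd14 depended on the stage was not settled. The test of exposure by stage gave an unadjusted p of 0.0804 and a limma adjusted p of 0.703, and that of the 4 stages within the O3 mice an unadjusted p of 0.0310 and an adjusted p of 0.274 (2.38% of wells passed the latter, and 0.00% the former). In FA mice the stage means lay between -5.34 and -4.95, with SDs up to 1.16 within a stage (limma adjusted p = 0.996). By phase, the O3 follicular mice exceeded the O3 luteal mice by 1.20 (standard error 0.418, limma adjusted p = 0.0648), where 8.33% of wells passed. That value crossed the threshold without FA diestrus replicate 2 or FA proestrus replicate 5 (1.20 in both), O3 estrus replicate 3 (1.31) or O3 metestrus replicate 3 (1.37). The interaction of exposure and phase was of like size, 1.20 (95% interval 0.09 to 2.32), with an adjusted p of 0.207.

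**Figure D1:**
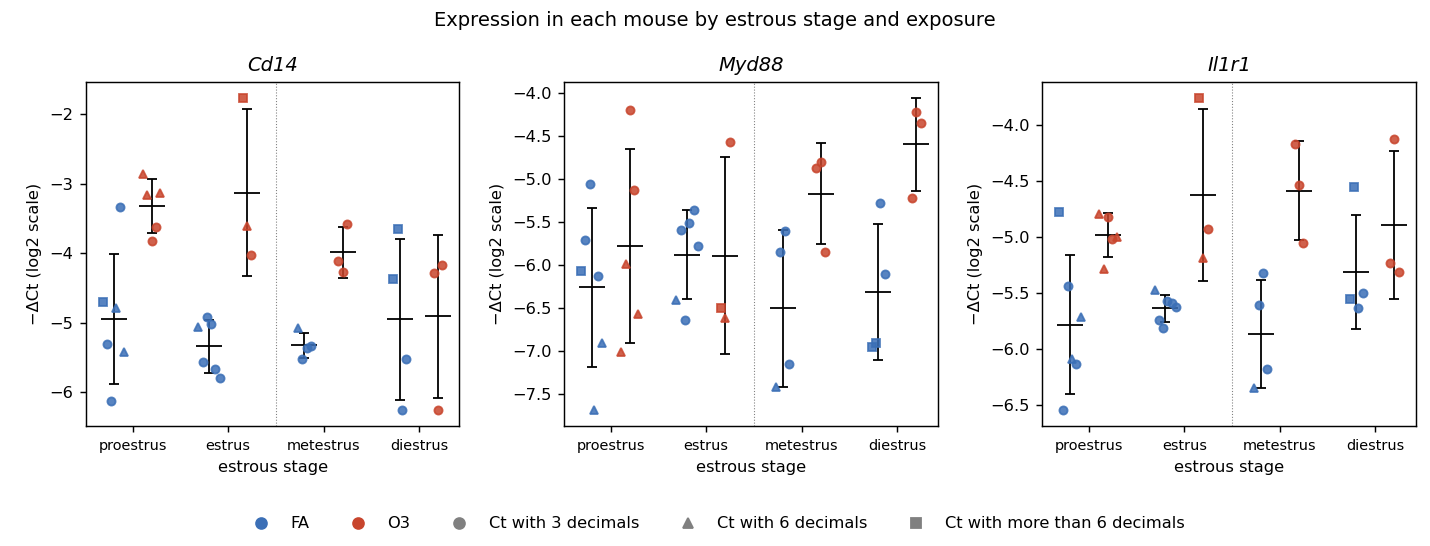
Expression (-ΔCt, log2 scale) of Cd14, Myd88 and Il1r1 in each of 34 mice by estrous stage (x axis), FA in blue and O3 in red; bars give the mean and SD of each group, marker shapes the number format of the Ct values, and the dotted line divides the follicular from the luteal stages. For Cd14 the O3 and FA mice separate in estrus and metestrus and overlap in proestrus and diestrus, and for Myd88 the triangles and squares lie below most circles in either exposure.

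Il1r1 was higher after O3 in every stage mean, with the smallest spread of the 3 genes. Weighted equally over stages, the difference was 0.87 (standard error 0.185, limma adjusted p = 0.000371), a fold of 1.83 with a 95% interval from 1.41 to 2.38. All 14 O3 mice lay above the FA median of -5.61. Of the 20 FA mice, 2 lay above the median O3 mouse, both of them in the format with more than 6 decimals.

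In proestrus, Il1r1 was at -4.80, -4.83, -5.00, -5.02 and -5.29 in O3 mice, and ran from -6.54 to -4.78 with a median of -5.90 in FA mice. The O3 mice were close together, and 1 FA mouse, replicate 1, lay above all 5. The difference was 0.80 (standard error 0.314, limma adjusted p = 0.103), and 0.997 with an adjusted p of 0.0214 without that FA mouse.

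In estrus, the O3 mice were at -3.76, -4.93 and -5.19 for Il1r1 and the FA mice ran from -5.81 to -5.48 with a median of -5.61. The groups did not overlap, as for 16.7% of all wells in estrus. The FA mice, with an SD of 0.121, were the most uniform group for any of the 3 genes. The difference was 1.01 (standard error 0.367, limma adjusted p = 0.0619). It passed the threshold without O3 estrus replicate 2 (1.29), and, at an unchanged 1.01, without FA proestrus replicate 1, FA diestrus replicate 2 or O3 diestrus replicate 2.

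In metestrus, Il1r1 was at -4.17, -4.54 and -5.05 in O3 mice and at -5.32, -5.61, -6.18 and -6.35 in FA mice, again without overlap (17.9% of all wells in metestrus did the same). Il1r1 rose by 1.28 (standard error 0.396, limma adjusted p = 0.0452), a call at the edge of the threshold. It was lost in 20 of the 34 fits that each left out 1 mouse. Of the 7 metestrus mice, these were O3 replicates 1 (1.07, adjusted p = 0.262) and 2 (1.25) and FA replicates 1 (1.12), 2 (1.36) and 4 (1.17), and the other 15 mice were of other stages, with an estimate of 1.28 and adjusted p up to 0.0556.

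In diestrus, the O3 mice were at -4.13, -5.23 and -5.31 for Il1r1 and the FA mice at -4.55, -5.50, -5.55 and -5.64. The FA mouse at -4.55 is again replicate 2, and the other FA mice lay below all O3 mice. The difference was 0.42 (standard error 0.396, limma adjusted p = 0.605), and 0.67 without that mouse, still not past the threshold.

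The 2 phases gave nearly the same estimate for Il1r1, with an interaction of 0.01 (95% interval -0.73 to 0.76, limma adjusted p = 0.975). A p of this size does not show that the phases act alike, and the interval gives what remains possible. The luteal difference of 0.85 (standard error 0.280, limma adjusted p = 0.0296) was lost on leaving out any of 5 mice. These were O3 metestrus replicate 1 (0.73), O3 metestrus replicate 2 (0.81), O3 diestrus replicate 2 (0.72), FA metestrus replicate 1 (0.74) and FA metestrus replicate 4 (0.76), with adjusted p from 0.0562 to 0.0890. The exact permutation test gave an adjusted p of 0.0762.

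Myd88 varied between mice in either exposure, with an SD of 0.763 over the 20 FA and 0.984 over the 14 O3 mice. With the stages weighted equally, it rose by 0.88 after O3 (standard error 0.304, limma adjusted p = 0.0257), a fold of 1.84 with a 95% interval from 1.19 to 2.83. This call was lost on leaving out O3 estrus replicate 3 (0.71, adjusted p = 0.0752), O3 metestrus replicate 2 (0.83, adjusted p = 0.0508) or O3 diestrus replicate 2 (0.83, adjusted p = 0.0506). Of the 14 O3 mice, 10 lay above the FA median of -6.09.

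In proestrus, Myd88 was at -4.20, -5.13, -5.99, -6.57 and -7.01 in O3 mice and ran from -7.69 to -5.05 with a median of -6.10 in FA mice. The O3 mice covered nearly the whole FA range, with a difference of 0.48 (standard error 0.517, limma adjusted p = 0.594). In estrus, the O3 mice were at -4.57, -6.50 and -6.61, against -6.64 to -5.36 and a median of -5.69 in FA mice. A single O3 mouse was above all FA mice and the other two were near the bottom of the FA range, and the difference was -0.01 (95% interval -1.25 to 1.22, limma adjusted p = 0.997).

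In metestrus, the O3 mice were at -4.80, -4.87 and -5.85 for Myd88 and the FA mice at -5.60, -5.85, -7.15 and -7.42. The O3 mouse at -5.85 made the ranges overlap, and the difference was 1.33 (standard error 0.652, limma adjusted p = 0.223). In diestrus, the O3 mice were at -4.22, -4.35 and -5.22 and the FA mice at -5.28, -6.11, -6.91 and -6.95. These groups did not overlap (5.95% of all wells did the same in diestrus), and the difference was 1.72 (standard error 0.652, limma adjusted p = 0.0755). Without FA diestrus replicate 3, it was 2.06 with an adjusted p of 0.0423.

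As for Cd14, no test of the stages passed for Myd88. The interaction of exposure and phase had the opposite sign, -1.28 (95% interval -2.46 to -0.10, limma adjusted p = 0.207), and the O3 follicular mice lay below the O3 luteal mice by 0.94 (adjusted p = 0.157). No well passed the threshold for the interaction (0.00% of 84), although 22.6% had an unadjusted p under 0.05, Cd14 (0.0357) and Myd88 (0.0343) among them. Cd14 was placed from the follicular and Myd88 from the luteal list of the study. The size and opposite signs of their interactions are therefore not independent evidence.

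Ordered by mean level, Cd14 ran from -3.13 ± 1.20 in O3 estrus, -3.32 ± 0.390 in O3 proestrus and -3.99 ± 0.364 in O3 metestrus down to -4.91 ± 1.17 in O3 diestrus. The FA groups followed, from -4.95 ± 0.937 in proestrus and -4.95 ± 1.16 in diestrus to -5.33 ± 0.183 in metestrus and -5.34 ± 0.383 in estrus. Il1r1 had its O3 groups first as well, metestrus at -4.59 ± 0.444, estrus at -4.63 ± 0.763, diestrus at -4.89 ± 0.660 and proestrus at -4.99 ± 0.195. Its FA groups lay at -5.31 ± 0.506 in diestrus, -5.64 ± 0.121 in estrus, -5.78 ± 0.620 in proestrus and -5.86 ± 0.480 in metestrus. Myd88 mixed the exposures, with O3 diestrus (-4.60 ± 0.543), O3 metestrus (-5.17 ± 0.590) and O3 proestrus (-5.78 ± 1.13) above FA estrus (-5.88 ± 0.521) and O3 estrus (-5.89 ± 1.15). FA proestrus (-6.26 ± 0.925), FA diestrus (-6.31 ± 0.789) and FA metestrus (-6.50 ± 0.912) came last. For each gene, every group overlapped with its neighbours in this order, so that single steps were within the spread between mice.

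Of the 3 genes, those past FDR 0.05 were Cd14 in proestrus, where 14.3% of all wells passed, Cd14 in estrus (14.3% of wells), Il1r1 in metestrus (7.14%) and none in diestrus (11.9%). With the stages weighted equally all 3 passed, as did 33.3% of the 84 wells, 23.8% higher and 9.52% lower after O3. The 3 genes were placed because the study listed them as changed in these mice, so this count is not independent evidence. By phase, Cd14 and Il1r1 passed in the follicular phase (22.6% of wells) and Il1r1 and Myd88 in the luteal phase (21.4%). These were the contrasts in which the study listed Cd14, Il1r1 and Myd88, apart from Il1r1 in the luteal phase.

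**Figure D2:**
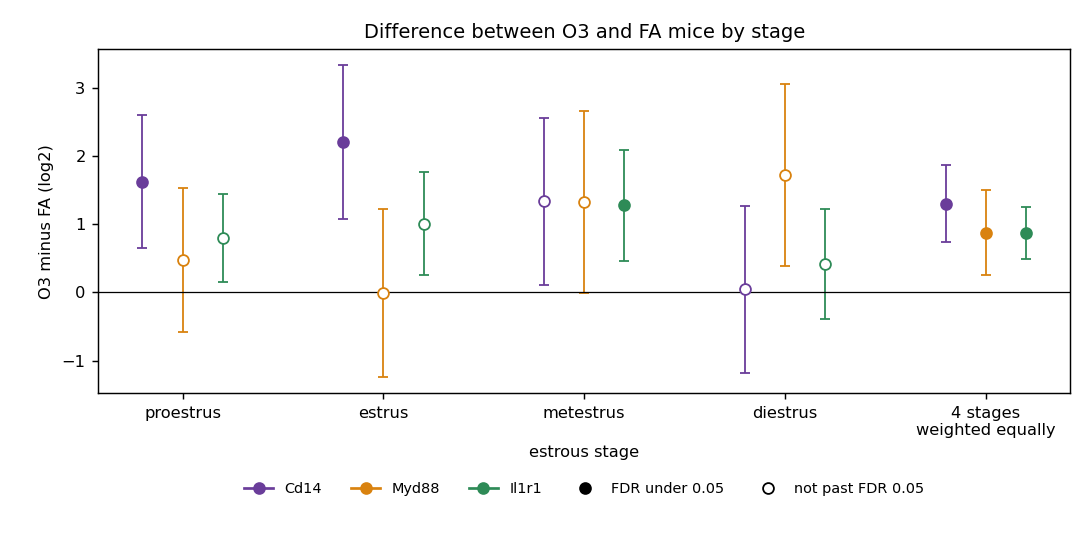
Difference between O3 and FA mice (log2, y axis) for each gene in each estrous stage and with the 4 stages weighted equally, from limma; bars are 95% confidence intervals, and filled points are past FDR 0.05 over 84 wells. The estimates for Cd14 run from 0.05 in diestrus to 2.21 in estrus and those for Myd88 from -0.01 in estrus to 1.72 in diestrus, with intervals that overlap between stages.

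Myd88 differed with the number format of the Ct values. In 3-decimal mice, Myd88 was at -5.83 ± 0.571 (SD, n = 13) after FA and at -4.80 ± 0.542 (n = 9) after O3. In 6-decimal mice it was at -7.11 ± 0.567 (n = 4) after FA and at -6.55 ± 0.419 (n = 4) after O3. All 5 O3 mice with 6 or more decimals were at or below -5.99, under the lowest 3-decimal O3 mouse at -5.85. All 5 were follicular, while 6 of the 9 3-decimal O3 mice were luteal. With format, exposure and phase in 1 fit, 6-decimal mice were lower than 3-decimal mice by 1.50 (standard error 0.253, limma adjusted p = 2.39e-05). The format term passed for 29.8% of all wells, so that Myd88 is not alone in this.

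For Cd14 and Il1r1, the 6-decimal and 3-decimal mice differed less, by 0.36 (adjusted p = 0.467) and -0.17 (adjusted p = 0.583). In the same fit, the 4 mice with more decimals differed from 3-decimal mice in all 3 genes. They were higher by 1.38 for Cd14 (adjusted p = 0.00300) and by 0.89 for Il1r1 (adjusted p = 0.00228), and lower by 0.98 for Myd88 (adjusted p = 0.0119). The share of all wells passing this term was not counted. Their Cd14 was at -3.66, -4.37 and -4.70 in FA mice and at -1.76 in the O3 mouse, the highest value of the 34. A 3-decimal FA mouse, proestrus replicate 5, had a Cd14 of -3.34, above these FA mice. Myd88 of the FA mice with more decimals ran from -6.95 to -6.07, within the 3-decimal FA range of -7.15 to -5.05.

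Within the 3-decimal mice, 6 of 9 O3 mice were above every FA mouse for Myd88. With 6 or more decimals, it was 1 of 5 O3 mice. The 3-decimal O3 mice were at -4.20, -4.57 and -5.13 in the follicular phase and between -5.85 and -4.22 in the luteal phase, so the phases overlapped. The O3 against FA difference of Myd88 was 1.09 in the follicular (limma adjusted p = 0.0477) and 1.11 in the luteal phase, against 0.25 and 1.52 over all mice. With the format as a term, the values were 0.66 (adjusted p = 0.0628) and 1.09 (adjusted p = 0.00759), and the interaction fell from -1.28 to -0.43 (95% interval -1.29 to 0.43, adjusted p = 0.672). Since the O3 luteal mice were all of 1 format, the phase and the format of O3 mice cannot be fully told apart.

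For Cd14, the same term brought the phases closer, to 1.75 in the follicular (adjusted p = 3.43e-05) and 1.08 in the luteal phase (adjusted p = 0.0260), with an interaction of 0.67 (95% interval -0.34 to 1.67, adjusted p = 0.567). The excess of O3 follicular over O3 luteal mice was then 0.85 (adjusted p = 0.265), and 0.63 in 3-decimal mice (adjusted p = 0.634), against 1.20 over all mice. In 3-decimal mice, the differences were 1.40 and 1.15. There 8 of 9 O3 mice exceeded the FA median, and the exception was O3 diestrus replicate 2 at -6.26. Of these 9, 0 were above every 3-decimal FA mouse. With 6 or more decimals, 5 of 5 O3 mice were above every FA mouse for Cd14. For Il1r1, the format term gave 0.86 and 1.05 (adjusted p = 0.000638 and 0.000797). All 9 of the 3-decimal O3 mice were above all 13 FA mice of that format, the lowest at -5.31 against the highest at -5.32. With 6 or more decimals, 1 of 5 O3 mice was above all 7 FA mice. How many of all wells separate in this way was not counted.

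**Figure D3:**
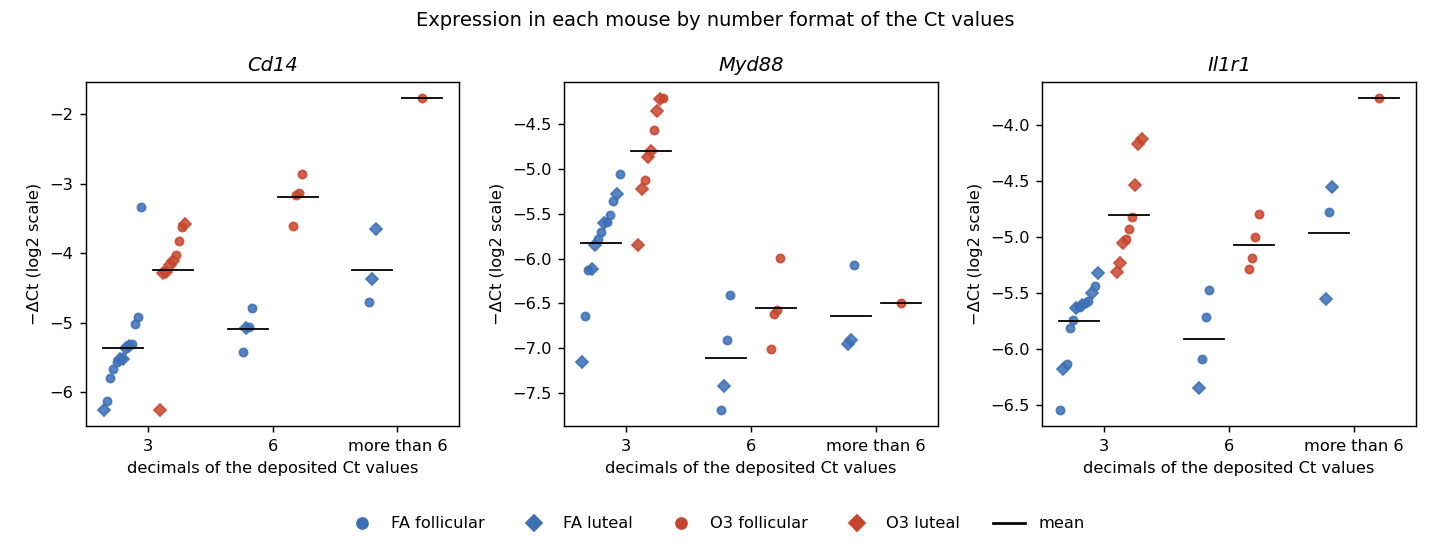
Expression (-ΔCt, log2 scale) of the 3 genes in each mouse by the number of decimals of the deposited Ct values (x axis), FA in blue and O3 in red, circles for the follicular and diamonds for the luteal phase, lines for means. The means of Myd88 are lower with 6 or more decimals in either exposure, and no O3 luteal mouse lies outside the 3-decimal format.

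**Figure D4:**
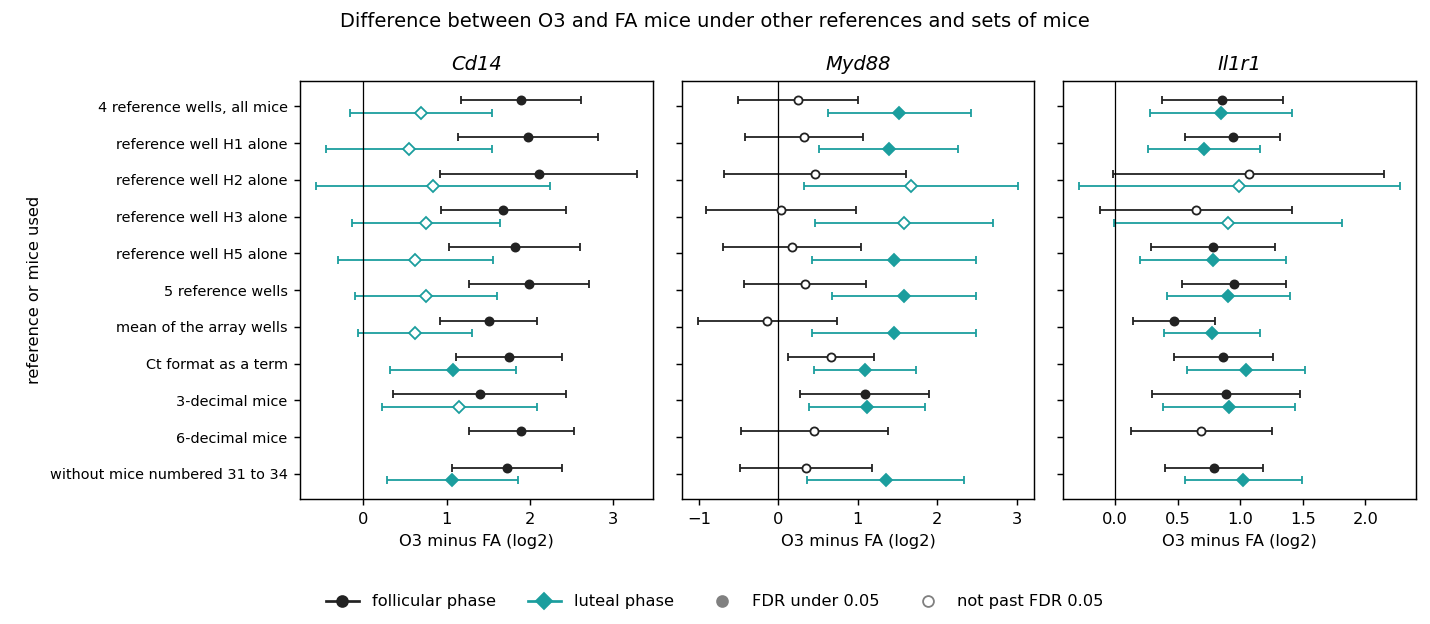
Difference between O3 and FA mice (log2, x axis) in the follicular phase (circles) and the luteal phase (diamonds) with other reference wells and other sets of mice (y axis), from limma; bars are 95% confidence intervals and filled points are past FDR 0.05. Cd14 in the follicular phase is past the threshold in every line, from 1.40 to 2.10, while Myd88 in the follicular phase runs from -0.14 to 1.09; no O3 luteal mouse was in the 6-decimal format.

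The reference also bears on these differences. With the mean Ct of 55 array wells as the reference, the follicular difference was 1.50 for Cd14, 0.47 for Il1r1 and -0.14 for Myd88, and the median over all wells moved from 0.29 to -0.10. The wells past the threshold were then 15 higher and 15 lower after O3, against 16 and 3 with the 4 reference wells. In the luteal phase the median of all wells was -0.12 with the reference wells and -0.19 with the array mean, and the calls were 10 higher and 8 lower against 13 and 13. With reference well H2 or H3 alone, Il1r1 was past the threshold in neither phase.

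A difference between 2 genes in the same mouse does not depend on the reference. Over 6 such comparisons of O3 with FA, none passed after adjustment. In the follicular phase, Cd14 minus Il1r1 had a mean of 0.57 ± 0.908 (SD, n = 12) in FA and of 1.60 ± 0.462 (n = 8) in O3 mice, a shift of 1.04 (exact permutation test, two-sided, p = 0.00930, adjusted p = 0.0558). Cd14 minus Myd88 shifted by 1.65, from 0.93 ± 1.22 (n = 12) to 2.57 ± 1.61 (n = 8) (exact permutation test, p = 0.0191, adjusted p = 0.0574). The study listed Cd14 but not Myd88 in this phase, and Myd88 but not Cd14 in the luteal phase. Shifts between these 2 genes are therefore not independent evidence. In 3-decimal mice, the shifts were 0.51 and 0.31 (exact permutation test, adjusted p = 0.875 for both). In the luteal phase, the shifts were -0.15 for Cd14 minus Il1r1, -0.83 for Cd14 minus Myd88 and 0.68 for Myd88 minus Il1r1 (exact permutation tests, adjusted p = 0.804, 0.363 and 0.246).

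Cd14 and Myd88 ran opposite to each other across mice. Among 14 O3 mice, Pearson's r was -0.728 (permutation p = 0.00078, adjusted over 6 relations p = 0.00468) and Spearman's rho was -0.754 (permutation p = 0.00266, adjusted p = 0.00930). Without the 2 mice farthest from the median of Cd14, r was -0.81. Among 20 FA mice, r was -0.495 (permutation p = 0.0256, adjusted p = 0.0767) and rho was -0.636 (permutation p = 0.00310, adjusted p = 0.00930).

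Within the 3-decimal format, the relation was not past the threshold in either exposure. In 9 O3 mice, r was -0.496 (permutation p = 0.160, adjusted p = 0.193) and rho was -0.300 (permutation p = 0.436, adjusted p = 0.493), and without the 2 farthest mice r was 0.086, so that r rests on those mice. In 13 FA mice, both were near the values over all FA mice, with an r of -0.433 (permutation p = 0.139, adjusted p = 0.193) and a rho of -0.643 (permutation p = 0.0208, adjusted p = 0.125). As deviations from the stage means, r was -0.59 in O3 mice (permutation p = 0.0256, adjusted p = 0.0768). The 6-decimal O3 mice, at 4, were too few for a value. Il1r1 had r between -0.004 and 0.207 with the other two genes in either exposure. With the mean of the array wells as the reference, however, Cd14 and Il1r1 gave an r of -0.648 in FA and -0.748 in O3 mice, so that the sign of this relation in FA mice, 0.136 with the reference wells, depended on the reference that both values share.

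**Figure D5:**
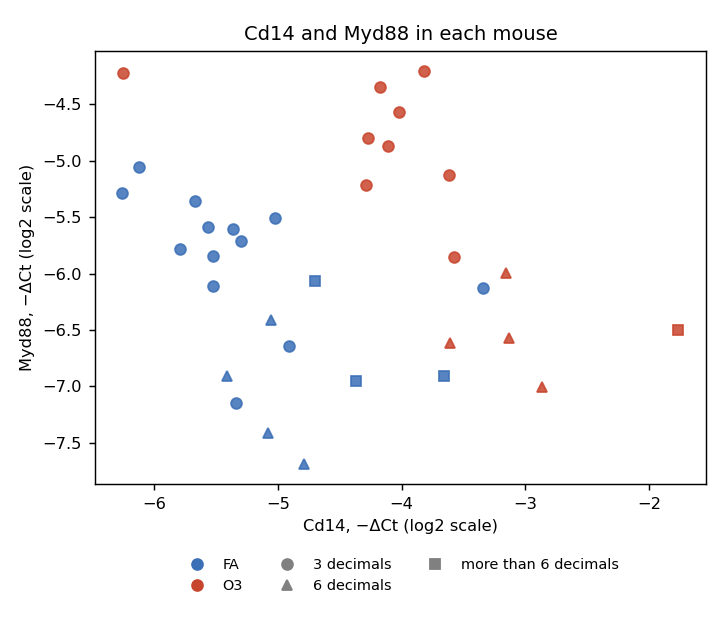
Cd14 (x axis) against Myd88 (y axis), both as -ΔCt on the log2 scale, 1 point per mouse, FA in blue and O3 in red, marker shapes for the number format of the Ct values. High Cd14 with low Myd88 is seen mostly in triangles and squares, the mice with 6 or more decimals.

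The wells whose 8 group means (4 stages by exposure) followed each gene most closely were listed among the 17 wells with a name. Cd14 was followed by Ccl11, a chemokine for eosinophils (Pearson's r = 0.967 over 8 means), and Ccl7, a chemokine for monocytes (0.959), at ranks 1 and 2 among all 83 other wells. Il1r1 was followed by Ptgs2, the inducible cyclooxygenase (0.951), and Fos, a subunit of AP-1 (0.950), at ranks 2 and 3. Myd88 had weaker matches, Ccl17, a chemokine for T cells (0.752), and Il6 (0.707), at ranks 4 and 7. Between the 3 genes, r over the 8 means was 0.774 for Cd14 and Il1r1, 0.674 for Myd88 and Il1r1 and 0.206 for Cd14 and Myd88. These are descriptions over group means that share the reference wells. The named wells, the 3 genes among them, were all listed by the study for an O3 difference in these mice. A high r between them is therefore not independent evidence.

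Among products of the route that these genes serve, 10 had a named well, namely Ccl2, Ccl7, Ccl20, Cxcl1, Cxcl2, Cxcl5, Cxcl10, Il6, Ptgs2 and Nos2, the inducible nitric oxide synthase. The study chose them on these mice, so neither their counts nor their median differences below are evidence about the route. In the follicular phase, 9 rose and 1, Nos2, fell (median difference 2.78, against 0.29 over all 84 wells, of which 22.6% passed). In the luteal phase 5 rose and 1, Nos2, fell (median 1.766, against -0.12 over all wells, of which 21.4% passed). By stage, 8 rose in proestrus and 8 in estrus (14.3% of all wells passed in each), 4 in metestrus (7.14%) and 3 in diestrus (11.9%), where Nos2 also fell. With the stages weighted equally 9 rose and Nos2 fell, where 33.3% of all wells passed.

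Ptgs2 and Cxcl2, a neutrophil chemokine, rose in both phases, by 2.52 and 3.02 in the follicular and by 1.65 and 2.83 in the luteal phase. Ccl2 and Cxcl10, chemokines for monocytes and T cells, rose by 2.11 and 2.54 in the follicular phase, and were at 0.95 (limma adjusted p = 0.102) and 1.10 (adjusted p = 0.0967) in the luteal phase. None of the 10 passed the interaction test. Ltb, lymphotoxin beta of lymphocytes and the 1 named well that stands for another cell type, fell by 1.14 in the follicular phase (limma adjusted p = 0.00239) and was at -0.29 in the luteal phase (adjusted p = 0.555). Its -ΔCt ran from -6.52 to -4.80 in O3 follicular and from -5.38 to -3.29 in FA follicular mice, and its part in the Cd14 result was not tested.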

How the data were processed

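Lung homogenates of 34 mice had been measured on a real-time PCR array (400 ng of RNA, RT2 First Strand kit, QuantStudio 12K Flex). The authors deposited raw Ct values (score, in cycles, without normalization) and a table of fold changes (ratio, linear) by the 2 to the -ΔΔCt method. The deposited ratio table was recomputed in 3026 of 3026 values, to within 0.00051, from reference wells H1, H2, H3 and H5, 1 calibrator mouse and a Ct of 36 where none was read. Threshold and baseline settings are not given in the sources used here. The files name wells by position. Each of 19 entries of the study's tables matched the deposited ratios of exactly 1 well, which named 17 genes. The members and gene lists were chosen with earlier results of these data known.

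From the Ct values, -ΔCt was computed with a Ct of 40 where none was read (237 of the array values, 8.30%; none for the 3 genes). limma 3.58.1 in R 4.3.3 was fitted to all 84 wells with 4 groups of exposure and phase or 8 of exposure and stage, with Benjamini-Hochberg adjustment and FDR 0.05, and was tested on simulated data. Groups came from the labels, each sample being a separate mouse. Reference Ct ran from 18.6 to 23.2. Pearson, Spearman, permutation tests (exact, or 100000 resamples for correlations, two-sided) and motif searches used Python 3.11.15 with numpy 2.4.6, pandas 2.3.3, scipy 1.17.1 and matplotlib 3.10.9. Genes named were the 3 members, 10 products of the pathway and, per member, the 2 named wells most like it over the 8 group means; Ltb was the marker of another cell type. Alternatives were other reference wells, a Ct limit of 35, missing Ct left out, a filter on wells, a separate fit, trend and robust options, the deposited ratio values (linear and log2), the replicate number as a block, the Ct format as a term or within a format, the mice numbered 31 to 34 left out and each mouse left out. The array gives no count of molecules, and the number of mice limits precision.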

Additional observations from a re-analysis of the deposited data

Results flagged for a closer look

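Of 29 groups of 4 to 10 mice tested for a single far value in a gene or in the control wells, 5 held one, and chance flags about 1 in 20 groups. FA diestrus replicate 2 was flagged for Il1r1, at -4.55 where the nearest FA diestrus mouse was at -5.50. The same mouse was flagged for the mean Ct of wells H10 to H12, at 27.5 against 20.5 in the nearest mouse of its group. FA proestrus replicate 1 was flagged for that mean as well, at 23.6 against 20.5. Both mice were among the 4 whose Ct values have more than 6 decimals, and these were the FA mice with the highest Il1r1, the luteal difference of which was 0.99 without FA diestrus replicate 2.

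Among O3 follicular mice, estrus replicate 1 was flagged for Il1r1, at -3.76 against -4.80 in the nearest mouse. It belongs to the same 4 mice, and its Cd14, at -1.76, was the highest of all 34. Its reference well H2 was at 23.9 where H1 was at 18.1, and in FA diestrus replicate 2 these wells were at 23.3 and 19.7. No other mouse had a higher Ct in H2. By construction, a high Ct in a reference well raises every -ΔCt of that mouse. How far H2 bears on these flags was not tested. Among O3 luteal mice, diestrus replicate 2 was flagged for Cd14, at -6.26 against -4.29. Its Ct values have 3 decimals, its Myd88 (-4.22) and Il1r1 (-4.13) were the highest of the O3 luteal mice, and without it the luteal difference of Cd14 was 1.05 and still not past the threshold. What lies behind these values was not tested.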

How the results depend on the processing

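Cd14 in the follicular phase and with the stages weighted equally kept direction and call under every alternative run (Cd14 follicular 1.40 to 2.10). Among the fits that left out 1 mouse only, Il1r1 in the follicular phase and with the stages weighted equally (0.77 to 0.94) did so too. The same held there for Myd88 in the luteal phase (1.38 to 1.72). All differences below are O3 minus FA on the log2 scale unless the 2 groups are named, and the causes of the changes were not tested beyond the construction of each alternative.

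Calls were lost as follows. Il1r1 in the follicular phase was not past the threshold with reference well H2 (1.07) or H3 (0.64) alone, in 6-decimal mice (0.69) or in mice with 6 or more decimals (0.71), the last added after seeing the data. Il1r1 in the luteal phase was not past it with H2 (0.99), H3 (0.90), the linear ratios (0.81), a separate fit (0.85, adjusted p = 0.107) or the exact permutation test (0.85, adjusted p = 0.0762), nor was Myd88 with H2 (1.67) or H3 (1.58). Over stages weighted equally, Myd88 lost its call with H2 (1.14), H3 (0.78), H5 (0.78), the array mean (0.63) and without the mice numbered 31 to 34 (0.81, adjusted p = 0.0594), and Il1r1 with H3 (0.78). Cd14 in proestrus lost it with H2 (1.38), H3 (1.42), the linear ratios (1.32) and in 3-decimal mice (1.20), and in estrus with H5 (1.68), in 3-decimal mice (1.37, where O3 estrus is 1 mouse assumed to vary like the others) and without the 4 mice (1.52, adjusted p = 0.0523). Il1r1 in metestrus lost it with H1 (1.001), H2 (1.69), H3 (1.17), a Ct limit of 35, missing Ct left out and trend and robust options (1.28 each), log2 ratios (1.28), linear ratios (1.17) and 3-decimal mice (1.12). With the replicate number as a block, Il1r1 was not past the threshold in the luteal phase (0.78, adjusted p = 0.0683) or in metestrus (1.22, adjusted p = 0.106), and no other call of the 3 genes changed. The numbers are not known to pair mice: 98 pairs of mice with the same number had a median correlation of 0.064 and a lowest of -0.601.

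Calls were gained for Myd88 in the follicular phase in 3-decimal mice (1.09), for Myd88 in diestrus with trend and robust options (1.72), and for Cd14 in the luteal phase with the format as a term (1.08) and without the 4 mice (1.07). Il1r1 gained one in proestrus with the array mean (0.59), H1 (1.01), H5 (1.04), 5 reference wells (0.90), the format term (0.98) and without the 4 mice (0.997), and in estrus with 5 reference wells (1.07) and linear ratios (1.15). O3 follicular minus O3 luteal for Cd14 passed with H1 (1.45), 5 wells (1.29) and trend and robust options (1.20), and was 0.85 with the format term and 0.63 in 3-decimal mice, not past the threshold. Correlations with the array mean as reference passed for Cd14 with Myd88 in FA mice (-0.554) and for Cd14 with Il1r1 in FA (-0.648) and O3 mice (-0.748). The correlation of Cd14 and Myd88 in O3 mice did not pass in 3-decimal mice (-0.496) or as deviations from stage means (-0.59).

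Directions turned in values that were not past the threshold in the report. With the array mean these were Myd88 follicular (-0.14), the Il1r1 interaction (-0.31) and the correlation of Cd14 and Il1r1 in FA mice (-0.648). The Il1r1 interaction was also below 0 with H3 (-0.26), H5 (-0.0011), the format term (-0.18), 3-decimal mice (-0.026), without the 4 mice (-0.24) and with linear ratios (-0.032). FA follicular minus FA luteal for Cd14 was above 0 with H1 (0.029), H3 (0.081), H5 (0.066), 5 wells (0.052), the format term (0.18), 3-decimal mice (0.38) and without the 4 mice (0.33), and for Il1r1 with the format term (0.047) and in 6-decimal mice (0.59). O3 follicular minus O3 luteal turned for Il1r1 with H1 (0.14) and for Myd88 in 3-decimal mice (0.25). Myd88 in estrus was above 0 with H2 (0.97), 5 wells (0.048), the format term (0.59), 3-decimal mice (1.21), without the 4 mice (0.29) and with linear ratios (0.41). Cd14 in diestrus was below 0 with H2 (-0.078), H5 (-0.051) and linear ratios (-0.015). In 3-decimal mice, the luteal shifts of Cd14 minus Il1r1 (0.25) and Cd14 minus Myd88 (0.040), the follicular shift of Myd88 minus Il1r1 (0.21) and the correlation of Cd14 and Il1r1 in FA mice (-0.444) turned, as did the luteal Cd14 minus Il1r1 without the 4 mice (0.043).

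The number of wells past the threshold, 19 in the follicular phase, was 30 with the array mean, 10 with H2 and 8 in mice with 6 or more decimals. In the luteal phase (18 wells) it was 6 with H2, 9 with H3, 3 with linear ratios and 29 without the 4 mice, and with stages weighted equally (28 wells) 18 with H2 and 17 with linear ratios.

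Leaving out each of the 34 mice gave ranges from 0.72 to 0.99 for Il1r1 luteal (past in 29 fits), 0.84 to 1.37 for Cd14 O3 follicular minus luteal (past in 4), -0.27 to 0.011 for the same in Il1r1, -0.17 to 0.21 and -0.23 to 0.025 for FA follicular minus luteal in Cd14 and Il1r1, and -0.14 to 0.13 for the Il1r1 interaction. By stage, they were 1.39 to 1.95 for Cd14 in proestrus (past in 32), 1.52 to 2.65 in estrus (33) and -0.39 to 0.72 in diestrus (0), 0.64 to 0.997 for Il1r1 in proestrus (1), 0.58 to 1.29 in estrus (4) and 1.07 to 1.51 in metestrus (14), -0.67 to 0.35 for Myd88 in estrus (0) and 1.50 to 2.06 in diestrus (1), and 0.71 to 0.97 for Myd88 with stages weighted equally (31). The shift of Cd14 minus Il1r1 ran from 0.92 to 1.24 in the follicular (past in 6, lowest adjusted p = 0.00206 without FA proestrus replicate 5) and from -0.39 to 0.33 in the luteal phase, and that of Cd14 minus Myd88 from 1.34 to 1.96 (past in 5). Luteal wells past the threshold ran from 10, without O3 diestrus replicate 2, to 24.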
